A study of Schizosaccharomyces pombe with 7 samples.

Results

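The regions described here are the 236 windows of 2 kb on the chromosome arms of the fission yeast Schizosaccharomyces pombe in which Fft3-GFP stood highest above the array median. They were chosen from 5155 arm windows, and the 3 chromosomes held 5941 windows in all. A window counted as Fft3-GFP-high when the mean of its probes on the Fft3-GFP array was 0.4 or more and it lay under 0.7 on at least 1 of the 3 WT H3K9me2 arrays. Each value is log2 of ChIP signal (Cy5) over whole-cell extract signal (Cy3), less the median of its array. Windows in the outer 200 kb of chromosomes 1 and 2, the outer 120 kb of chromosome 3, around the centromeres and around the mating-type region had been left out.

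The study hybridised ChIP DNA from S. pombe to custom 2-colour Agilent arrays with 60-base probes spaced 300 bp apart. H3K9me2 was measured in WT cells (series 1, 2 and 3), in fft3∆ cells (series 2 and 3) and in UV21 cells (series 1), UV21 being a strain that the labels name without saying what it is. An antibody to GFP was used on 1 further array, Fft3-GFP in cells whose genotype is labelled WT. All cultures were in log phase in rich medium (YEA) at 30 °C and were fixed with 3% paraformaldehyde. The Fft3-GFP cells alone were first held at 18 °C for 6 h and were treated with 10 mM dimethyl adipimidate after fixation, and no untagged strain or other GFP control array was used here. The Fft3-GFP level therefore comes from 1 array under a cold incubation and a second crosslinker that the H3K9me2 arrays did not share. The labels do not say whether the series are separate cultures, so p-values measure the spread between arrays, which may be technical.

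Fft3 belongs to the Snf2 family of ATP-driven chromatin remodellers and to its Fun30 branch, named after the budding yeast protein. H3K9me2, laid down in fission yeast by the methyltransferase Clr4, marks heterochromatin at centromeres, telomere-proximal regions and the mating-type region, while most arm genes lie in euchromatin. RNA polymerase III transcribes tRNA and 5S rRNA genes, with tRNA genes carrying internal promoter elements called the A box and the B box. Many fission yeast ribosomal protein genes carry the HomolD box shortly before their start, and histone genes carry AACCCT boxes.

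The following promoters are shown because their genes lay in Fft3-GFP-high windows and ranked among the highest of the cell wall, ribosomal protein or histone genes named below. Each is the 250 bases before the gene's annotated start in the RefSeq annotation of assembly ASM294v3, read 5′ to 3′ on the gene's strand. Capitals mark the HomolD letters CAGTCACA, present as their reverse complement TGTGACTG in the first 3, and in htb1 the histone box AACCCT, present as its reverse complement AGGGTT.
psu1, chrI:1823431-1823680 (- strand): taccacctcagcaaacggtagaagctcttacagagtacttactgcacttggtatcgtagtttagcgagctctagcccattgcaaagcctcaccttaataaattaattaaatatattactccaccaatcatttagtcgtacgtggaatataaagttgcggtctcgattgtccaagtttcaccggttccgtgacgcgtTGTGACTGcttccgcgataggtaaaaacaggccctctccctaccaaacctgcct
rps27, chrII:517071-517320 (+ strand): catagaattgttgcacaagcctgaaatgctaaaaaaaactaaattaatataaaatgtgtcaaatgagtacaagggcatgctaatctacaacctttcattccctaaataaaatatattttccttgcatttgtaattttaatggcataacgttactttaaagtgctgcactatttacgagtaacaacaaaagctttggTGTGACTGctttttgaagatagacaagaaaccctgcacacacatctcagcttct
rpl1001, chrII:2081231-2081480 (+ strand): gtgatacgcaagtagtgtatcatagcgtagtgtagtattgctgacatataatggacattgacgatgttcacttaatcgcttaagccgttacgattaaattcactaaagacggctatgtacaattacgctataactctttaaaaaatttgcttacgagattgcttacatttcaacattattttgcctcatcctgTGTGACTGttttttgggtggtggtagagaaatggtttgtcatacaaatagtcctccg
htb1, chrIII:1412109-1412358 (+ strand): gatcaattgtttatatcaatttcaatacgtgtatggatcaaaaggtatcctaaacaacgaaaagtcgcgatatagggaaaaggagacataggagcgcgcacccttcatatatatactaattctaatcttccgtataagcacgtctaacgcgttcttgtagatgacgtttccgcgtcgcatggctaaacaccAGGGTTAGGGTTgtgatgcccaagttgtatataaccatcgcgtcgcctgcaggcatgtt

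The tRNA genes below are shown because 3 of them overlapped the window with the second highest Fft3-GFP level of all 236, and the last had a probe inside it. Capitals mark the B box core GTTCGANNC. SPBTRNAGLN.01 and SPBTRNAGLN.03 are identical, and SPBTRNAGLN.02 differs from SPBTRNAGLN.01 by C34T, counted from 1 at the 5′ end of the gene with the base of SPBTRNAGLN.01 first.
SPBTRNAGLN.01, chrII:257454-257525 (+ strand): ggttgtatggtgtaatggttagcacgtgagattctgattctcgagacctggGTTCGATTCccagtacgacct
SPBTRNAGLN.02, chrII:257908-257979 (- strand): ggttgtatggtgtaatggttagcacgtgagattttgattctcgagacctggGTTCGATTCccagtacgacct
SPBTRNAGLN.03, chrII:258848-258919 (- strand): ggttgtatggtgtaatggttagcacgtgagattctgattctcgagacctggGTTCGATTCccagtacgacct
SPATRNALYS.02, chrI:1733764-1733838 (- strand): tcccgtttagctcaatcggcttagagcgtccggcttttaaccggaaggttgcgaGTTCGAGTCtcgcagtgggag

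The high windows were spread over all chromosomes as short, separate stretches. Chromosome 1 held 101 of its 2383 arm windows (4.24%), chromosome 2 held 80 of 1847 (4.33%) and chromosome 3 held 55 of 925 (5.95%). They formed 193 stretches, of which 156 were a single window, 32 were 2 windows, 4 were 3 windows and 1 was 4 windows long. Their Fft3-GFP level, which chose them, ran from 0.40 to 1.11 with a median of 0.50, and the other 4919 arm windows had a median of −0.01. Of the 1153 probes in the high windows, 1124 (97.5%) were above 0 on the Fft3-GFP array, against 46.1% of the 25990 probes in other arm windows. The same probes formed the window means that chose the windows, so a large share above 0 was built in. Within a window the SD between probes had a median of 0.19, against 0.14 elsewhere on the arms.

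The threshold fell in a dense part of the distribution. The 5 windows just inside it had levels of 0.402 to 0.404 and held ctp1, bdf1, sec24, cut6 with SPAC56E4.03, and in 1 case no gene other than long noncoding RNA genes. The 5 windows just outside had 0.395 to 0.399 and held SPAC4F10.17, the histone pair hht1 and hhf1 with aro1, mug33, SPAC9E9.04 and a neighbouring stretch of cut6. A further 5 arm windows reached 0.4 in Fft3-GFP but were at 0.7 or more on all 3 WT H3K9me2 arrays, and these held gsf2, eno101, rps1701 with new14 and new20, and in 2 cases no gene that is named here.

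Both channels of the Fft3-GFP array differed between kinds of high window. The 209 windows that overlapped no tRNA gene had a median Cy5 signal of 0.88 and a median Cy3 signal of 0.27 relative to the array medians. The 27 windows that overlapped a tRNA gene had a median Cy5 signal of −0.35 and a median Cy3 signal of −0.998, so that their high ratio went with a low whole-cell extract signal. Cy3 was under −1 in 13 of these 27 windows, in 14 of the other 209 and in 303 of all 5155 arm windows. The part of the low Cy3 signal in the ratio of these windows was not tested.

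Genes of the cell surface held the highest window. The window at 1822001 to 1824000 on chromosome 1, as the array gives positions, lies over psu1, which encodes a cell wall protein of the SUN family, and had an Fft3-GFP level of 1.11. Over all 4 of its probes psu1 averaged 1.10, from 0.81 to 1.31, which is 2.14 times the array median ratio. Of the 14 genes of the plasma membrane and cell wall list with probes on the arms, 7 had a probe in a high window. This list and those below were chosen with earlier results of these data known, so their shares are descriptions. These were psu1, the 1,3-beta-glucanosyltransferase genes gas2 (0.79), gas1 (0.73) and gas5 (0.52), the glucan synthase genes bgs4 (0.51) and bgs1 (0.22), and ags1 (0.36), which encodes an alpha-glucan synthase. The synthase genes differed in how much of their length was high. bgs4 had 18 of its 19 probes in high windows and filled the only stretch of 4 windows, whose levels were 0.42, 0.51, 0.54 and 0.51. bgs1 had 4 of its 19 probes in a high window, with all probes between −0.08 and 0.85, and ags1 had 13 of 26, with probes between 0.14 and 0.76. Outside the list, knh3 averaged 1.05 over 5 probes, knh2 averaged 0.98 over 3, and pmp3, which encodes a small plasma membrane proteolipid, stood at 1.09 on both of its probes. The stretch over fhn1 averaged 0.81 and its gene 0.72.

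Genes of translation were present in the high windows both as translation factors and as ribosomal proteins. Probes of 4 of the 5 translation factor genes measured on the arms lay in high windows, namely tef103 (0.99, 1 probe), tif51 (0.95, 1 probe), tef3 (0.72, 5 probes between 0.68 and 0.74) and tif45 (0.26, 3 probes). tef103 encodes elongation factor EF1-alpha, tif51 the factor eIF5A and tef3 the fungal elongation factor eEF3. Of the 60-base stretches of tef103, 69.3% have an exact second copy in the genome, so its signal cannot be told apart from that of its sister genes. Among 97 ribosomal protein genes with probes, 16 (16.5%) lay in high windows, led by rps27 (1.19, 1 probe), rpl1001 (1.03, 2 probes), rpp102 (0.76, 2 probes) and rps602 (0.75, 1 probe). The median level of the 97 ribosomal protein genes was 0.40, and 92 of them were above 0. In rpl1001, 32.8% of the 60-base stretches have a second copy. sfp1, whose budding yeast counterpart regulates ribosomal protein genes, averaged 0.97 over 8 probes, none under 0.78.

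Histone genes were high throughout. All 7 histone genes with arm probes stood at 0.41 or more, and 4 of them lay in high windows. The divergent pair htb1 (0.85, 3 probes) and hta1 (0.75, 3 probes), which encode H2B and H2A, shares the window at 1412001 to 1414000 on chromosome 3. The others in high windows were hhf2 (0.69) and hht3 (0.52), genes for H4 and H3 with 1 probe each. hht1 (0.44) and hhf1 (0.41) lay in the window just under the threshold.

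Genes of central metabolism and of protein folding made up a further group. gpd1, which encodes glycerol-3-phosphate dehydrogenase, averaged 0.95 over 4 probes. zwf1 (0.81) and gnd1 (0.61) encode the dehydrogenases of the oxidative pentose phosphate pathway. Of 13 glycolysis and fermentation genes, tpi1 (0.63) and gpm1 (0.56) lay in high windows, and 11 of the 13 were above 0. Of 16 amino acid synthesis genes, 4 did: met26 (0.71), the methionine synthase gene, sam1 (0.62), the gene of S-adenosylmethionine synthetase, leu2 (0.54) and ilv5 (0.49). The chaperone genes in high windows were bip1 (0.65), sks2 (0.64), mcp60 (0.60) and pss1 (0.34), which are 4 of 12 on the list. The transporter genes with probes in a high window were ght2 (0.75) and ght8 (0.66), which are 2 of 5 hexose transporter genes, tgp1 (0.51), 1 of 2 genes of the phosphate list, and thi9 (0.33), 1 of 6 thiamine genes, whose list median was 0.02. The polyubiquitin gene ubi4 averaged 1.14, with a second copy for 76.1% of its 60-base stretches.

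Other lists had no gene in the high windows. None of the 14 genes of the heterochromatin machinery, 9 of the Snf2 family, 11 Mmi1 targets, 8 RNA polymerase II and III subunits, 5 cytoskeleton genes or 4 iron genes measured on the arms had a probe in one. Their list medians in Fft3-GFP were −0.09, 0.01, 0.06, −0.01, 0.07 and −0.08. Over all 4303 protein-coding genes with arm probes, 272 (6.32%) had a probe in a high window and the median level was −0.004. Counted by any overlap of the gene with the window, 313 of 4392 protein-coding genes (7.13%) and 364 of 5840 long noncoding RNA genes (6.23%) overlapped a high window. By that count 1 of the 14 heterochromatin genes did so too.

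**Figure D1:**
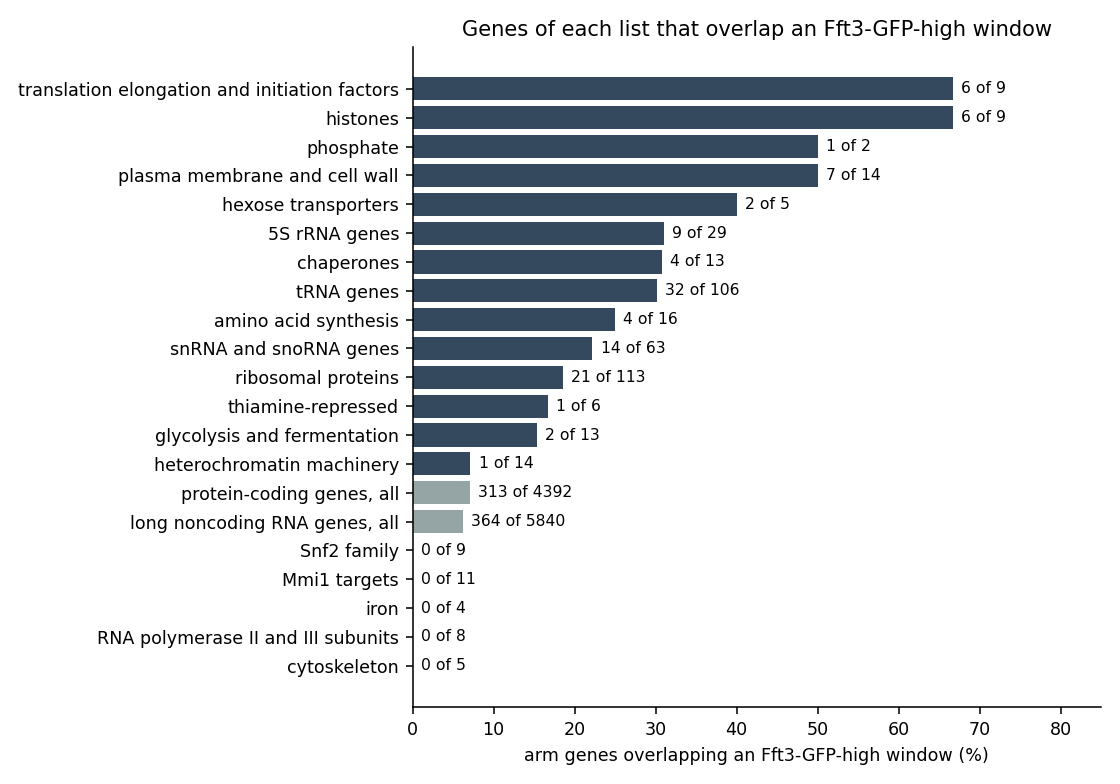
The horizontal axis gives the percentage of the arm genes of each list that overlapped an Fft3-GFP-high window by at least 1 base, with the counts beside each bar; grey bars are all protein-coding and all long noncoding RNA genes. Translation factors and histones reached 66.7%, tRNA genes 30.2%, and all protein-coding genes 7.13%. The lists were chosen with earlier results of these data known.

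Small RNA genes were held by the high windows more often than protein-coding genes as a whole. Of 106 tRNA genes on the arms, 32 (30.2%) overlapped a high window, as did 9 of 29 annotated 5S rRNA genes (31%) and 14 of 63 snRNA and snoRNA genes (22.2%). These genes are mostly shorter than the probe spacing, and only 4 tRNA genes, 3 5S genes and 5 snRNA or snoRNA genes had a probe start inside them in a high window. Highest were snu2, the U2 snRNA gene (1.21), snu1, the U1 snRNA gene (1.14), and snoZ5 (1.07), each on 1 probe, whose Cy3 signals on that array were −0.93, −1.23 and −3.00. SPATRNALYS.02 stood at 0.90 on 1 probe with a Cy3 signal of −3.33, and an exact second copy exists for all of its 60-base stretches. The second highest window of all, at 258001 to 260000 on chromosome 2, had an Fft3-GFP level of 1.01 over 4 probes, held no probe in a protein-coding gene and overlapped the 3 glutamine tRNA genes shown above. Its Cy3 signal on that array was −2.38. The window at 1690001 to 1692000 on chromosome 3 (0.81) overlapped sup9, imt07 and SPRRNA.05 and had a Cy3 signal of −1.15. Long terminal repeats of transposons overlapped 14 high windows (5.93%) and 131 other arm windows (2.66%).

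The Fft3-GFP level followed the distance from these genes across the arms. The 156 arm probes centred within 250 bp of a tRNA gene averaged 0.54 ± 0.26 (SD over probes of the single array), and 97.4% of them were above 0. The mean was 0.35 at 250 to 500 bp, 0.12 at 500 to 1000 bp, 0.09 at 1 to 2 kb and 0.01 beyond 4 kb. The Cy3 signal of the same array fell toward the tRNA genes as well, with means of −1.51 within 250 bp, −1.07 at 250 to 500 bp and −0.42 at 500 to 1000 bp, against −0.06 beyond 4 kb. Around 5S rRNA genes the Fft3-GFP mean was 0.49 within 250 bp and 0.09 at 500 to 1000 bp. Around snRNA and snoRNA genes it was 0.45 within 250 bp and 0.16 at 500 to 1000 bp. The Cy3 signal was low near these genes too. Its means were −0.86 within 250 bp of 5S rRNA genes and −1.03 at 250 to 500 bp, against −0.07 beyond 4 kb. For snRNA and snoRNA genes they were −0.74 and −0.69, against −0.07. Of the 106 arm windows that overlapped a tRNA gene, 99 were above 0 and their median was 0.25, so that most of them lay above the arm median but under the threshold. Gene placement on the array deviated by up to 360 bp in single segments, which blurs distances of this size.

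**Figure D2:**
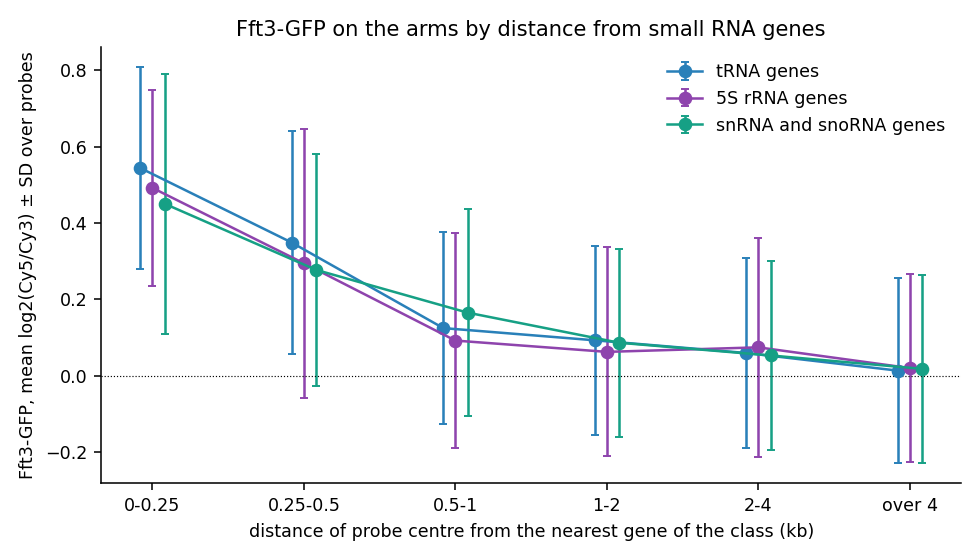
Points give the mean Fft3-GFP log2 ratio of arm probes by the distance of the probe centre, in kb, from the nearest tRNA, 5S rRNA, or snRNA or snoRNA gene, and bars give the SD over probes of the single array. The mean near tRNA genes goes from 0.54 within 250 bp to 0.01 beyond 4 kb.

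Promoter letters differed between the protein-coding genes of the high windows and other arm genes. For 122 genes with at least 2 probes, a mean of 0.4 or more and a probe in a high window, the 250 bases before the gene start were searched on both strands. HomolD (CAGTCACA) was present in 17 of the 122 promoters (13.9%) and in 45 of 3934 promoters of all other such arm genes (1.14%). Of the 17, 5 were on the ribosomal protein list. The other 12 were psu1, cpc2, ght2, tef3, anc1, sks2, tpi1, sam1, mcp60, ubi2, ilv5 and rlp7, among which ubi2 encodes a ubiquitin and ribosomal protein fusion and cpc2 the ribosome-associated protein RACK1. TGACGT was present in 18 promoters (14.8%) against 4.91% elsewhere, among them pmp3, knh2, gpd1, htb1 and hta1. AACCCT was present in 18 (14.8%) against 7.12%, and GTAAACA in 24 (19.7%) against 15.3%. TATAAA was found in 39.3% against 44.8%, and GAANNTTC in 3.28% against 9.66%. None of these motifs contains another, and no count was tested. Among ribosomal protein genes with at least 2 probes, HomolD was present in 5 of 7 inside high windows and in 22 of 35 outside them. The B box core GTTCGANNC was present in 23 of the 32 tRNA genes that overlapped high windows (71.9%) and in 56 of 74 others on the arms (75.7%).

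Protein-coding genes with probes in the high windows were described along their length. Over the 122 genes the mean was 0.14 in the bin of 250 bp farthest upstream, 1 kb before the start, 0.39 in the last 250 bp before it, 0.56 in the first sixth of the body, 0.64 in the third sixth and 0.57 in the last. It was 0.48 in the first 250 bp downstream and 0.18 in the bin that ends 1000 bp downstream. These genes were chosen by the mean of their body probes on the same array, so a body higher than its flanks was built in and the profile is a description. The 125 genes with a probe in a high window but a mean under 0.4 reached 0.12 in the first sixth and their highest mean of 0.37 in the first 250 bp downstream, outside the body. They too were chosen on the same array, by a high window and a low body mean. A highest mean outside the body was therefore favoured by that choice. The 3809 other genes stayed between −0.06 and 0.05. Median gene length was 2021 bp for the 122 genes and 1893 bp for the other genes.

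**Figure D3:**
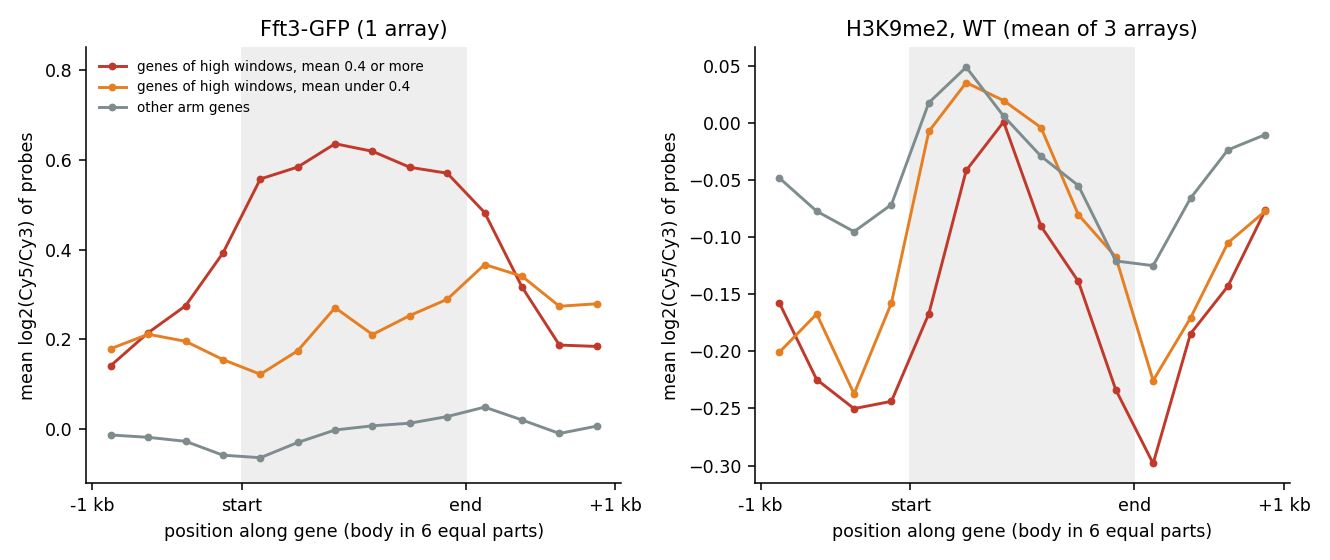
The left panel gives the mean Fft3-GFP log2 ratio and the right panel the mean WT H3K9me2 log2 ratio of probes along protein-coding genes, with 250 bp bins over 1 kb on each side and the body (shaded) in 6 equal parts; the vertical scales differ. The 122 genes of high windows with a mean of 0.4 or more go from 0.14 upstream to 0.64 in the body in Fft3-GFP, and other arm genes lie between −0.06 and 0.05.

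High windows held fewer coding probes. Of their probes 70.8% started in protein-coding genes, against 80.6% in other arm windows, and 14.3% against 8.11% started in no annotated gene. Fft3-GFP was 0.54 on the coding and 0.54 on the other probes of the high windows. GC content was 39.6% for the coding probes of high windows and 37.1% for coding probes elsewhere, while the other probes had 31.9% and 32%. The part of base composition in the ratio was not tested.

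H3K9me2 was low in the high windows in the WT and UV21 arrays of series 1 and 2. In WT the median over the 236 windows was −0.22 in series 1, −0.22 in series 2 and −0.05 in series 3, and it was −0.20 in UV21, −0.16 in fft3∆ series 2 and −0.10 in fft3∆ series 3. Over the other 4919 arm windows the medians were between −0.07 and −0.08 in WT, −0.07 in UV21, −0.11 in fft3∆ series 2 and −0.10 in fft3∆ series 3. WT series 3 and fft3∆ series 3 therefore did not show the lower median that the other 4 arrays showed. These 2 arrays are also the ones read with another extraction protocol. They were scanned on another scanner model than the other 4, the model used for the Fft3-GFP array. The rule capped WT H3K9me2 on 1 array only, and at 0.7 or more there were 0, 6 and 9 high windows in WT series 1, 2 and 3. Whole-cell extract signal (Cy3) had a median of 0.37 in the high windows of WT series 2, 0.33 in fft3∆ series 3 and 0.28 in fft3∆ series 2, and of 0.08 to 0.15 on the other H3K9me2 arrays, against −0.02 to −0.07 in other arm windows. The part of Cy3 in the H3K9me2 ratio was not tested. Across the 236 windows, which share their probes between arrays, the correlation of Fft3-GFP with H3K9me2 was −0.17, −0.12 and −0.08 in WT series 1, 2 and 3, −0.15 in UV21, and −0.12 and 0.05 in fft3∆ series 2 and 3. Over all 5155 arm windows, which were not chosen on Fft3-GFP, it was −0.03, −0.03 and 0.13 in WT, −0.02 in UV21, and 0.02 and 0.06 in fft3∆. Its sign in WT series 3 and in fft3∆ series 2 was thus the opposite.

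**Figure D4:**
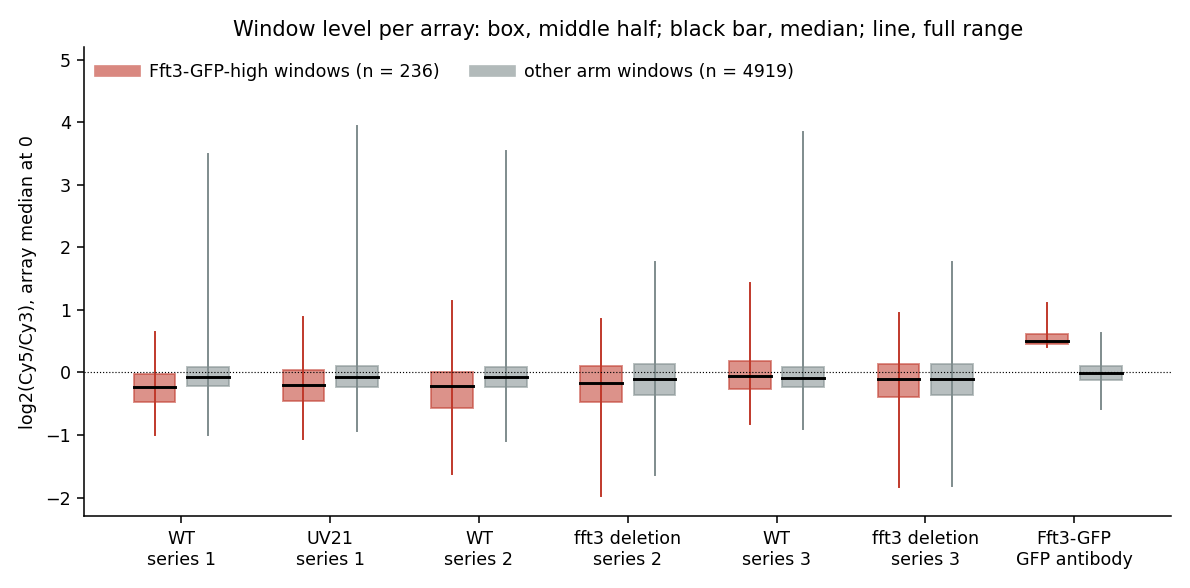
Boxes give the interquartile range, black bars the median and lines the full range of window log2 ratios on each of the 7 arrays, for the 236 Fft3-GFP-high windows and the 4919 other arm windows. In WT series 1 the median is −0.22 in high windows and −0.07 in other arm windows, while the Fft3-GFP array separates the groups because it chose them.

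H3K9me2 levels differed widely between the genes of the high windows. tef3 had −0.91, −0.98 and −0.42 in WT series 1, 2 and 3, −0.80 in UV21, and −0.99 and −1.27 in fft3∆ series 2 and 3. met26 had −1.01, −1.15 and −0.62 in WT, −1.05 in UV21, and −1.29 and −0.62 in fft3∆. Both genes were below the array median on every H3K9me2 array. The histone gene htb1 lay near it, with −0.09, 0.02 and −0.07 in WT, 0.12 in UV21, and 0.16 and −0.35 in fft3∆. wwm2 had the highest mean over the 3 WT arrays of the named genes, with 0.59, 1.23 and 0.60 in series 1, 2 and 3, 0.79 in UV21, and −0.07 and 0.27 in fft3∆ series 2 and 3. For wwm2 both fft3∆ values lay under all WT values. Among windows, the same was seen in 16.5% of the high windows, 19.8% of the other arm windows and 26.3% of all windows. The first probe of wwm2 starts at 205501 on chromosome 2, close to the left-out outer 200 kb. The single probe of rps27 went the other way, with −0.60, −0.98 and −0.73 in WT, −0.56 in UV21, and 0.17 and 0.90 in fft3∆. Single genes were not tested, since the fit ran on windows. As medians over the genes of a list, WT H3K9me2 was −0.77 for the 5 translation factors, −0.34 for 97 ribosomal protein genes, 0.06 for 7 histone genes and −0.04 for all protein-coding arm genes.

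The comparison of fft3∆ with WT asks whether H3K9me2 in these windows differed without Fft3. At an adjusted p under 0.05 (limma with Benjamini-Hochberg adjustment over all 5941 windows), 1 of the 236 windows was lower and 2 were higher in fft3∆. The rule for high windows used the same WT arrays. It left out arm windows at 0.7 or more on all 3 of them, where H3K9me2 had most room to fall. The count of lower windows may therefore be reduced by that choice, but by no more than the few arm windows left out, described with the threshold above. The size of this effect within that bound was not tested. Over all windows, which had no such limit, 328 (5.52%) were lower and 10 (0.168%) were higher. Of these, 55 and 10 lay on the arms, which is 1.07% and 0.194% of arm windows, against 0.424% and 0.847% of the high windows. At an unadjusted p under 0.05, 17 high windows (7.2%) were lower and 12 (5.08%) higher. The shares were 15.8% lower and 3.27% higher over all windows, and 8.92% and 3.67% over arm windows, which are the nearer comparison. The median difference was −0.02 in the high windows, −0.06 in other arm windows and −0.10 over all windows, and in the high windows it was above 0 with centring on arm windows (0.01), the median of probes (0.02), normexp background correction (0.06) and loess normalisation (0.07). Within series 2 it was 0.07 and within series 3 −0.13. The high windows as a group therefore had no difference whose sign held in both series.

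H3K9me2 fell in 1 window, at 4056001 to 4058000 on chromosome 1, over SPAC19G12.09 and cpy1, the gene of the vacuolar protease carboxypeptidase Y. WT had −0.18, −0.01 and 0.17 in series 1, 2 and 3, fft3∆ had −0.98 and −1.18 in series 2 and 3, and UV21 had −0.27. The fft3∆ values lay under all others. The difference was −1.07 ± 0.18 (SE; adjusted p = 0.0151 by limma), from −0.01 ± 0.17 (SD, n = 3) to −1.08 ± 0.14 (SD, n = 2), and it was −0.96 within series 2 and −1.35 within series 3. On the probes of each gene over its whole length, SPAC19G12.09 had −0.96 and −1.06 in fft3∆ against −0.05 to 0.32 in WT, and cpy1 had −0.42 and −0.72 against −0.33 to 0.10.

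H3K9me2 rose in 2 windows. In all 3 called windows, the 1 that fell and these 2, the ratio stayed under 0.7 on every H3K9me2 array. The highest window among the other arm windows stood at 3.49, 3.54 and 3.85 in WT series 1, 2 and 3. The calls are therefore differences at low ratios, and no array of total histone H3 was used here. At 1270001 to 1272000 on chromosome 2, over but2, WT had −0.89, −0.75 and −0.46 in series 1, 2 and 3, fft3∆ had 0.05 and 0.35 in series 2 and 3, and UV21 had −0.84. The difference was 0.90 ± 0.20 (SE; adjusted p = 0.0382 by limma), a 1.87-fold higher ratio, and it was 0.80 within series 2 and 0.81 within series 3. This window also had one of the higher Fft3-GFP levels, 0.90. At 2418001 to 2420000 on chromosome 2, over ape2, which encodes an aminopeptidase, and pvg3, WT had −0.46, −0.57 and −0.82, fft3∆ had 0.32 and 0.17, and UV21 had −0.47. The difference was 0.86 ± 0.18 (SE; adjusted p = 0.0331 by limma), and it was 0.89 and 0.996 within series 2 and 3. Only 1 probe of ape2 and 1 of pvg3 lay in this window, and over all 11 probes of ape2 the values were −0.17 and −0.22 in fft3∆ and −0.20, −0.17 and 0.07 in WT, so the rise did not extend over the gene. but2 over its 4 probes had −0.07 and 0.28 in fft3∆ and −0.80, −0.79 and −0.47 in WT. The 3 calls together rested on WT series 2 and 3: with either left out no high window was called and the smallest adjusted p was 0.0588 and 0.0679, although the 3 differences then stayed between 0.76 and 1.07 in size. Neither of the 2 rises was called without WT series 1, with non-uniform features kept or with the series number as a replicate block. Each of the 2 windows has 3 probes, so neither was tested at a minimum of 5. Leaving out either fft3∆ array left 1 array in that group, and the counts of calls moved again. The median difference over the high windows was then 0.02 without fft3∆ series 2 and −0.05 without fft3∆ series 3.

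The highest Fft3-GFP window, over psu1, had H3K9me2 of −1.003, −0.82 and −0.53 in WT, −1.07 in UV21, and −0.19 and 0.0047 in fft3∆ series 2 and 3. Both fft3∆ values lay over all WT values, as they did in 9.32% of the high windows, 11.9% of the other arm windows and 10.4% of all windows. The difference of 0.69 ± 0.19 (SE) did not pass the test (adjusted p = 0.0872 by limma). fhn1 had probes in 2 high windows that differed in sign. The window at 526001 to 528000 on chromosome 2, with an Fft3-GFP level of 0.9997, had a difference of −0.19 ± 0.20 (SE; adjusted p = 0.683 by limma). The window at 528001 to 530000 had −0.43, −0.50 and −0.25 in WT, −0.37 in UV21, and 0.26 and 0.22 in fft3∆, a difference of 0.64 ± 0.16 (SE) that did not pass (adjusted p = 0.067 by limma). Beside psu1 and this window, the windows next in order of adjusted p had lower values in fft3∆. The window at 926001 to 928000 on chromosome 3, over SPRRNA.26, pac4 and swt1, had a difference of −0.66 (adjusted p = 0.0726 by limma). The one over btf3 and wsp1 had −0.83 (adjusted p = 0.0906) and the one over mrpl3, rpp102 and trs23 had −0.58 (adjusted p = 0.0988), both by limma. None of these passed the test, and both signs occurred among them. The window with the 3 glutamine tRNA genes had −0.75, −1.22 and 0.17 in WT, −0.75 in UV21, and −1.98 and −0.62 in fft3∆, and its groups overlapped. In the window of hta1 and htb1, WT had 0.04, 0.30 and 0.01, UV21 had 0.17 and fft3∆ had 0.31 and −0.06, a difference of 0.01 ± 0.19 (SE; adjusted p = 0.987 by limma).

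**Figure D5:**
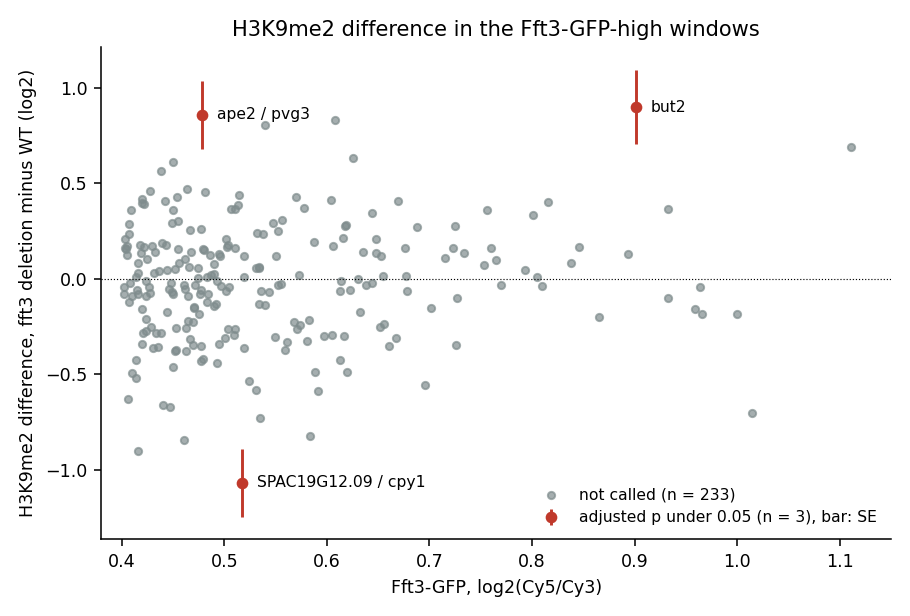
Each point is 1 of the 236 Fft3-GFP-high windows, with its Fft3-GFP log2 ratio on the horizontal axis and the H3K9me2 difference, fft3∆ minus WT on the log2 scale, on the vertical axis; red points with SE bars are the 3 windows with an adjusted p under 0.05. The window over SPAC19G12.09 and cpy1 lies at −1.07, and those over but2 and over ape2 and pvg3 lie at 0.90 and 0.86.

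The other comparisons gave no call in the high windows. Between UV21 and WT, limma called 0 of the 236 windows in either direction, against 0% of all windows. At an unadjusted p under 0.05 there were 0 high windows too, while 2.22% of all windows were lower and 1.28% higher. On the arms alone these shares were 0.563% and 0.291%. UV21 had 1 array, which was assumed to vary like the others. Between fft3∆ and UV21, 0 high windows were called, against 1.2% of all windows called lower and 0% higher (0.0194% and 0% of arm windows). At an unadjusted p under 0.05, 6 high windows were lower and 6 higher (2.54% each). The shares were 10.7% and 1.73% of all windows, and 5.63% and 1.96% of arm windows. In whole-cell extract (Cy3), fft3∆ against WT gave 0 calls in the high windows and 0% over all windows. At an unadjusted p under 0.05, 1 high window was lower and 2 were higher (0.424% and 0.847%). The shares were 0.236% and 1.06% of all windows, and 0.252% and 0.504% of arm windows. The median Cy3 difference between fft3∆ and WT in the high windows was 0.08, with −0.11 within series 2 and 0.18 within series 3. Cy3 in fft3∆ against UV21 gave 0 calls too. At an unadjusted p under 0.05, 20 high windows were higher (8.47%), against 2.56% of all windows and 2.48% of arm windows, and 0 were lower. Cy3 in UV21 against WT also gave 0 calls. At an unadjusted p under 0.05, 4 high windows were lower (1.69%), against 0.269% of all windows and 0.291% of arm windows, and 0 were higher. The median Cy3 difference was 0.25 between fft3∆ and UV21, with 80.5% of the high windows above 0, and −0.18 between UV21 and WT, with 24.6% above 0.

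The labels were checked at fft3 itself, where whole-cell extract signal over 12 probes was 0.876% and 1.14% of the array median in fft3∆ and 57.1% to 77.5% on the other arrays. Relative to local background, the 7 arrays had median signals of 19.8 to 219 times in Cy3 and of 22.8 to 100.3 times in Cy5. WT series 3 stood apart, with 12.3% of its probes flagged as non-uniform and 3.79% saturated. With so few arrays, their number sets how precise any difference can be.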

How the data were processed

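Chromatin had been sheared to 500 to 1000 bp, and per the labels all 7 arrays had ChIP DNA in Cy5 and whole-cell extract in Cy3, both amplified by random-primed PCR, with no dye swap. The authors deposited Agilent Feature Extraction files. Per the file headers their signals are spot intensities, the processed signal being background-subtracted intensity times a linear dye factor, and their LogRatio column is log10 of Cy5 over Cy3. The series' deposited table of values gives the same quantity as a linear ratio. Here log2 of that ratio was taken from the processed signals and centred on each array's median, with no loess or quantile step.

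Probes non-uniform on any of the 6 H3K9me2 arrays, probes whose Cy3 signal was not flagged well above background on all of them, and probes ending in f or m were left out, which kept 33704 of 41551 probes before the last step; 1697 probes ended in f or m. Windows of 2 kb needed at least 3 probes. Positions are the array's, whose build is not given in the sources used here. Genes of ASM294v3 were placed on each arm by the shift that best matched GC content to Cy3 signal (correlation 0.264 to 0.303, at most 0.0755 more than 2 kb away), and 200 kb segments deviated by up to 360 bp. A window held a gene when a kept probe started in the gene. Promoter and tRNA sequences are RefSeq's, by coordinates of that assembly.

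All 6 H3K9me2 arrays entered 1 limma 3.58.1 fit (R 4.3.3) whose single factor was the group, and p-values were adjusted over 5941 windows by Benjamini-Hochberg, tested on simulated data before use. The high windows and gene lists were chosen with earlier results of these data known. Named genes were drawn from those of the 20 highest stretches (the highest gene with at least 2 probes), up to 10 of each list, those of called windows, those of the 5 windows on each side of the threshold, and the 10 highest arm genes. Long noncoding RNA genes, which overlap most coding genes, were not named, a choice made after their values were seen. Lists, settings and probe filters were varied as described at the end.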

Additional observations from a re-analysis of the deposited data

How the results depend on the processing

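Counts of called high windows were small and moved with single arrays. In the comparison of fft3∆ with WT, leaving out 1 WT array at a time gave 0 to 1 lower and 0 higher windows. Over all windows it gave 96 to 185 lower and 0 higher in place of 328 and 10. Leaving out either fft3∆ array, which left 1 in that group, moved the counts too. The count of higher windows, 2, became 0 with non-uniform features kept or with at least 5 probes a window, and 1 with the median of probes or with windows shifted by 1 kb, while the count of lower windows stayed at 1 under all alternatives that kept every array. Between fft3∆ and UV21 the count of 0 became 2 lower with windows shifted by 1 kb and 1 higher with loess. It also moved when fft3∆ series 2 was left out, which left 1 array in each of these groups. UV21 against WT and Cy3 in fft3∆ against WT stayed at 0 calls in the high windows under every alternative run. The cause of these changes was not tested, except that at least 5 probes a window left fewer windows.

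With the series number as a replicate block, fft3∆ against WT gave 1 lower and 0 higher high windows, and all windows gave 276 lower and 0 higher. The deviations of same-numbered arrays from their group means correlated at 0.0147 in series 2 and 0.0217 in series 3 across 5155 arm windows, so the numbers were not treated as pairing the arrays. This check is weak, since the deviations of only 2 fft3∆ arrays from their mean mirror each other.

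The number of high windows, 236, was 423 with normexp (209 shared), 154 with at least 5 probes, 117 and 478 with a threshold of 0.5 and 0.3, 80 when only adjoining windows counted, and 191 with loess (167 shared). It was 223 with WT under 0.7 on all 3 arrays, and 250 with no filter on probes at all, an alternative chosen after seeing the data. Counting genes that overlap a window, also chosen after seeing the data, gave 8 high windows with translation factor genes in place of 5, 1 with heterochromatin genes in place of 0, 27 with tRNA genes in place of 4, 9 with 5S genes in place of 3 and 11 with snRNA or snoRNA genes in place of 5. Adding the 500 bp before a gene gave 25 with tRNA genes, 7 with 5S genes, 12 with snRNA or snoRNA genes and 2 with thiamine genes in place of 1.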
